A study of Homo sapiens with 18 samples.

Results

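The genes described here are those that write, copy and erase DNA methylation. They are the DNA methyltransferases DNMT1, DNMT3A and DNMT3B, the hemimethylated-DNA binding proteins UHRF1 and UHRF2, and the methylcytosine dioxygenases TET1, TET2 and TET3. They were listed by symbol, with no measured value in the rule but with earlier results of these data known, and are 8 of the 23368 genes in the deposited tables. All 8 passed the filter on low values in each comparison.

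The RNA came from SJSA cells, an osteosarcoma cell line in which CDK4 and MDM2 are amplified, and was sequenced in 18 libraries from 6 groups of 3 replicates. Nutlin keeps MDM2 from binding p53 and so activates p53, and PD0332991 (Palbociclib) inhibits CDK4 and its relative CDK6, the kinases that phosphorylate pRb. The groups were DMSO as the solvent control, Nutlin (20 µM for 6 h), PD30 (PD0332991 at 10 µM for 30 h), PD24 (PD0332991 at 10 µM for 24 h and then withdrawn), N+PD30 (Nutlin in the last 6 h with PD0332991 kept on) and N+PD24 (Nutlin for 6 h after PD0332991 had been withdrawn). The labels give 20 µM for every Nutlin library, whereas the scheme of the study names more than 1 Nutlin concentration. All groups are 1 cell line, so the values describe that line. The study describes the libraries of a group as biological triplicates. Neither it nor the labels say whether the 3 came from separately treated cultures, and a p-value here measures the spread between these libraries.

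Methyl groups on the cytosine of CpG sites are lost by dilution each time DNA is copied unless they are restored. UHRF1 binds the half-methylated sites behind the replication fork and recruits DNMT1, which methylates the new strand, and both genes are known to be induced in late G1 and S phase through E2F factors. UHRF2 is a related protein that does not replace UHRF1 in this task, DNMT3A and DNMT3B place methyl groups on unmethylated DNA, and the TET enzymes oxidise methylcytosine, which opens a way to its removal. Only RNA was measured, neither protein nor DNA methylation.

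In the GRCh37 annotation DNMT1 lies on chromosome 19 (10244018 to 10341962, minus strand) and UHRF1 on the same chromosome (4903092 to 4962165, plus strand). UHRF2 lies on chromosome 9 (6413151 to 6507054, plus strand), DNMT3A on chromosome 2 (25450724 to 25565459, minus strand) and DNMT3B on chromosome 20 (31350191 to 31397165, plus strand). TET1 is on chromosome 10 (70320094 to 70454244), TET2 on chromosome 4 (106067032 to 106200973) and TET3 on chromosome 2 (74212037 to 74335303), all on the plus strand. Taking the reference (MANE) transcript of each of the 8 genes, only exons of TET3 overlap exons of another annotated gene. That gene lies on the same strand and covers 3.23% of the TET3 transcript. Exons of other transcripts of the 8 genes were not checked.

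The start regions of DNMT1, UHRF1 and UHRF2 are shown because the fall of the first pair under PD0332991 was the largest among the 8 genes, whereas UHRF2 is a paralog of UHRF1 with a smaller fall. RefSeq promoter windows (GRCh38.p14), from 250 bases before to 50 bases after each annotated start, were searched on both strands for the E2F-type letters TTTCGCGC, TTTGGCGC, TTTCCCGC and TTTGCCGC. All 19 windows of the 8 genes were found once in the GRCh37 sequence at or near their gene, which gives the coordinates. The rest of the genome was not searched. Capitals mark the matched letters, which on DNMT1 and on the first UHRF1 window appear as their reverse complement. The lines give DNMT1 (chr19:10305620-10305729, minus strand, 100 bases before to 10 after the start), the first of 3 UHRF1 starts (chr19:4909413-4909522, plus strand, the same span), a second UHRF1 start (chr19:4909946-4910055, plus strand, 210 to 101 bases before it) and UHRF2 (chr9:6413099-6413208, plus strand, 100 before to 10 after).
DNMT1: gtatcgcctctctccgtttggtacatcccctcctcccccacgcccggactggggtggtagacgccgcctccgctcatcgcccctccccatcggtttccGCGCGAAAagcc
UHRF1, first start: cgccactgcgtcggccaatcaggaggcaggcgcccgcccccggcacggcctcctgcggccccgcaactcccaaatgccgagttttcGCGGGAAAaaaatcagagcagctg
UHRF1, second start: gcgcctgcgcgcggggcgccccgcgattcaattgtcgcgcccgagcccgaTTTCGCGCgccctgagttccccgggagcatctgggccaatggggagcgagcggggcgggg
UHRF2: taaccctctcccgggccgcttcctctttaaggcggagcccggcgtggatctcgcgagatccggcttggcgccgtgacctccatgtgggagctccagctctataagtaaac

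DNMT1 and UHRF1 were 2 of the 8 genes with such letters in any window, and the windows of the other 6 genes do not contain them. Among those 6 are UHRF2 and also DNMT3B, which fell by 1.61 on the log2 scale in PD30 against DMSO. Over all 27305 genes with a window, 1090 (3.99%) held a match, and so did 13 of the 21 S phase genes that could be matched (61.9%). A match is a description of these letters and not evidence of binding.

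Total counts per library ranged from 12704845 (N+PD30 replicate 1) to 40231041, with a median of 29608936. Over 13559 genes, log2 CPM (a gene's counts per 1000000 counts of its library) correlated at 0.979 to 0.996 between replicates of a group and at 0.865 to 0.984 between libraries of different groups. CDK4 lay between 1701 and 3160 CPM in the 18 libraries. The p53 target CDKN1A had 184 ± 38.0 CPM in DMSO and 3984 ± 146 in Nutlin (SD, n = 3 each), and MDM2 had 2589 ± 79.7 and 22914 ± 4589. Among osteoblast-lineage markers, RUNX2, ALPL, COL1A1, COL1A2 and SPARC were at 10.6 CPM or more in every library, while SP7, IBSP and BGLAP were near 0, with at most 0.244 CPM.

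Markers of other cell types were low but moved with treatment. Summed over 4 endothelial markers, the level was 3.45 to 5.46 CPM in DMSO, 5.98 to 9.47 in PD24, 7.73 to 10.1 in PD30, 7.80 to 10.6 in Nutlin, 6.93 to 9.68 in N+PD30 and 13.3 to 18.3 in N+PD24. VWF, the von Willebrand factor, was 1 of 3 tested in PD30 against DMSO that rose (log2 fold change 1.90 ± 0.20, edgeR, adjusted p = 5.91e-05). Over all genes 22.9% were called higher there. The others tested were at -0.45 and 0.07 and were not called, and CDH5 was at 0.123 CPM or less in every library. The 4 haematopoietic markers summed to 13.7 to 19.9 CPM in DMSO, 24.3 to 31.2 in PD24, 26.97 to 36.5 in PD30, 17.2 to 24.6 in Nutlin, 25.1 to 33.7 in N+PD30 and 32.2 to 36.5 in N+PD24. Nearly all of that was CD68, a lysosomal protein of macrophages and other cells, which rose in PD30 by 0.83 ± 0.16 (edgeR, adjusted p = 0.00251), while PTPRC and CD3E stayed at or below 0.492 CPM. The 5 epithelial markers summed to between 1.07 and 3.36 CPM over all libraries. Whether these markers have a part in the changes of the 8 genes was not tested.

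DNMT1 and UHRF1 had the highest RNA levels of the 8 genes in untreated cells. In CPM per kb of transcript, the scale on which genes can be compared with each other, DMSO libraries held 74.5 ± 2.77 for DNMT1 and 49.5 ± 7.43 for UHRF1 (SD, n = 3). UHRF2 was at 8.74 ± 0.68, TET2 at 4.93 ± 0.51, DNMT3B at 3.39 ± 0.43 and TET3 at 2.80 ± 0.09. DNMT3A (1.44 ± 0.05) and TET1 (0.75 ± 0.10) were the lowest.

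**Figure D1:**
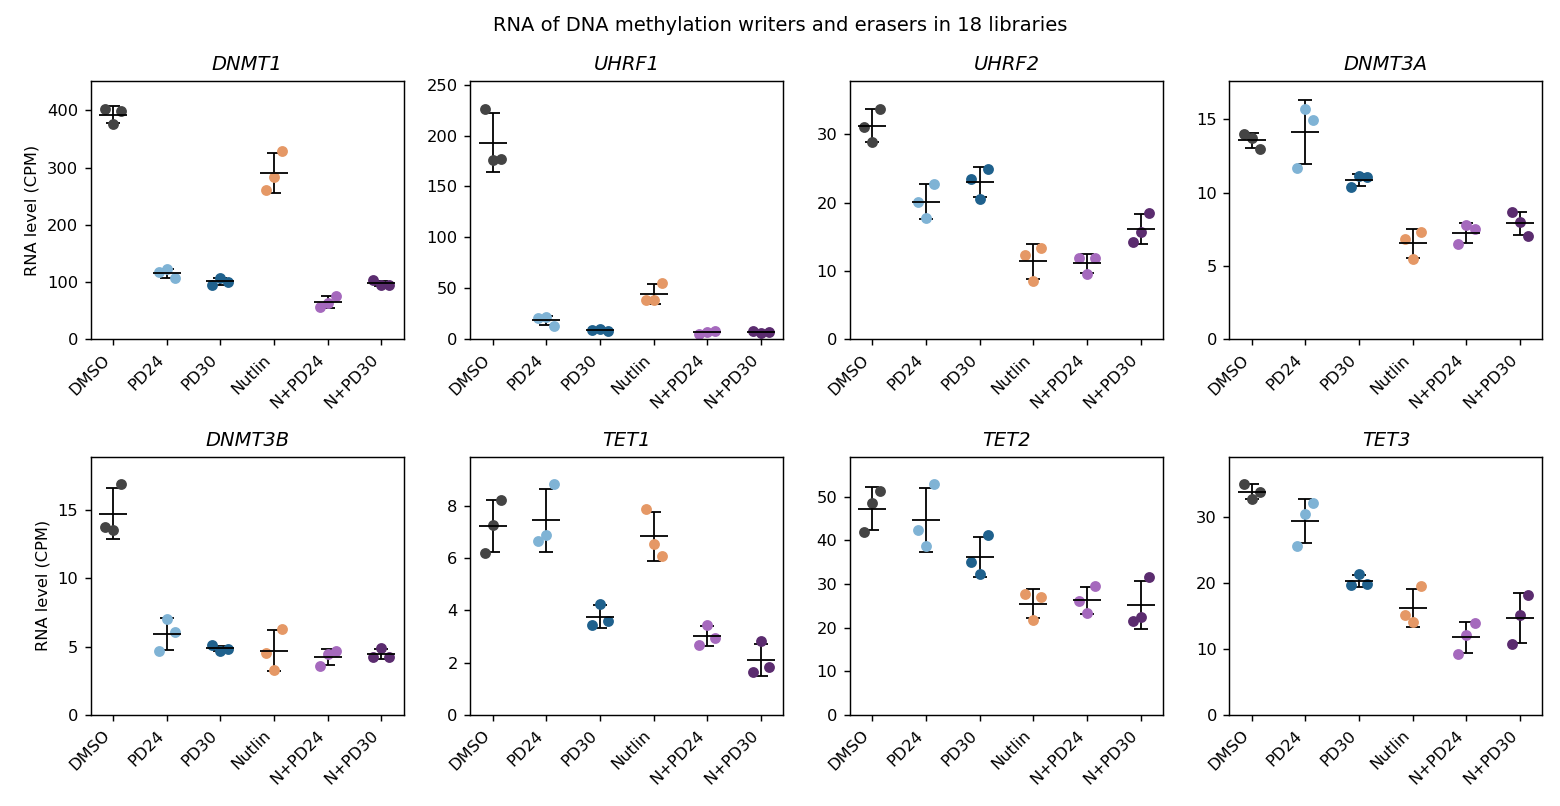
RNA level in CPM (vertical axis, linear from 0, a scale of its own for each gene) of the 8 genes in each of the 6 groups (horizontal axis). Points are the 3 libraries, the horizontal bar is their mean and the whiskers are ± 1 SD. DNMT1 and UHRF1 are low in every group that received PD0332991, DNMT3A, UHRF2, TET2 and TET3 are low in the 3 groups with Nutlin, DNMT3B is low in all 5 treated groups, and TET1 is low in PD30, N+PD24 and N+PD30.

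Which of these genes changed when CDK4/6 was inhibited without Nutlin was asked first, by setting PD30 and PD24 against DMSO. UHRF1, the factor that directs maintenance methylation, had 226, 176 and 177 CPM in the 3 DMSO libraries, 20.6, 21.8 and 13.1 in PD24, and 9.33, 10.1 and 8.26 in PD30. Every treated library lay below every DMSO library, and PD30 lay wholly below PD24. The log2 fold change was -4.40 ± 0.14 (SE) in PD30 against DMSO, to 0.0473 of the control, with an adjusted p of 1.35e-08 (edgeR quasi-likelihood test with TMM scaling, Benjamini-Hochberg over all genes, used for all comparisons without N+PD24), and -3.36 ± 0.21 in PD24 (edgeR, adjusted p = 3.96e-06).

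DNMT1, the maintenance methyltransferase, had 403, 376 and 399 CPM in DMSO, 118, 122 and 107 in PD24, and 95.7, 107 and 100.2 in PD30. Both PD0332991 groups were far below DMSO, and they overlapped with each other. Its log2 fold change was -1.97 ± 0.08 in PD30 (edgeR, adjusted p = 6.35e-08) and -1.74 ± 0.10 in PD24 (edgeR, adjusted p = 1.67e-06). DNMT3B, a de novo methyltransferase, had 13.7, 13.5 and 16.8 CPM in DMSO, 4.69, 7.04 and 6.04 in PD24, and 5.10, 4.70 and 4.80 in PD30, again without overlap between treated and control libraries. It fell by 1.61 on the log2 scale in PD30 (edgeR, adjusted p = 1.13e-05) and by 1.29 in PD24 (edgeR, adjusted p = 0.000703).

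The remaining genes changed less under PD0332991. UHRF2 had 31.1, 28.9 and 33.7 CPM in DMSO, 20.0, 17.7 and 22.7 in PD24, and 23.5, 20.6 and 25.0 in PD30, so that both treated groups lay below DMSO and overlapped with each other. It fell by 0.46 on the log2 scale in PD30 (edgeR, adjusted p = 0.00588) and by 0.61 in PD24 (edgeR, adjusted p = 0.00414). TET1 had 6.21, 7.28 and 8.21 CPM in DMSO, 6.65, 6.87 and 8.82 in PD24, and 3.44, 4.25 and 3.61 in PD30. Only the PD30 libraries were set apart, with a log2 fold change of -0.95 ± 0.16 (edgeR, adjusted p = 0.00111), against 0.07 ± 0.17 in PD24 (edgeR, adjusted p = 0.778).

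TET3, the main TET enzyme of the oocyte, ranged from 32.7 to 34.9 CPM in DMSO, from 25.6 to 32.04 in PD24 and from 19.7 to 21.3 in PD30. The 3 ranges did not overlap, and the fall passed the test in PD30 (log2 fold change -0.75 ± 0.09, edgeR, adjusted p = 0.000145), whereas PD24 gave -0.18 ± 0.12 (edgeR, adjusted p = 0.255). TET2, often mutated in blood cancers, ranged from 41.9 to 51.4 CPM in DMSO, from 38.8 to 52.8 in PD24 and from 32.3 to 41.3 in PD30. DNMT3A, the other de novo enzyme, ranged from 13.0 to 14.0, from 11.7 to 15.7 and from 10.4 to 11.1 CPM in the same groups. For both genes PD24 overlapped DMSO and PD30 lay below it, by -0.40 ± 0.12 for TET2 (edgeR, adjusted p = 0.0179) and -0.33 ± 0.11 for DNMT3A (edgeR, adjusted p = 0.0303). These calls were narrow. DNMT3A missed the threshold of 0.05 when any 1 of 5 libraries was left out (DMSO replicate 1 or 2, or any PD30 replicate, with edgeR adjusted p from 0.0505 to 0.107), and TET2 when DMSO replicate 2 or PD30 replicate 1 or 2 was left out (edgeR, adjusted p from 0.0623 to 0.0689).

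In all, 8 of 8 genes were lower in PD30 than in DMSO, where 25.4% of the 15125 genes tested were called lower, and 4 of 8 (DNMT1, DNMT3B, UHRF1 and UHRF2) in PD24, where 20.8% were. In 1 edgeR fit over all 15 count libraries 6 of 8 were lower in PD30 (21.5% of all genes), and DNMT3A and TET2 missed the threshold. The median log2 fold change of the 8 genes was -0.85 in PD30 and -0.39 in PD24, against 0.00 and 0.02 over all genes tested. The call in the other direction was made for 0 of the 8 genes in both comparisons by edgeR, where 22.9% and 17.5% of all genes were called higher. The 2 comparisons share the DMSO libraries. In bulk RNA, fewer cells of a kind and less RNA per cell cannot be told apart.

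**Figure D2:**
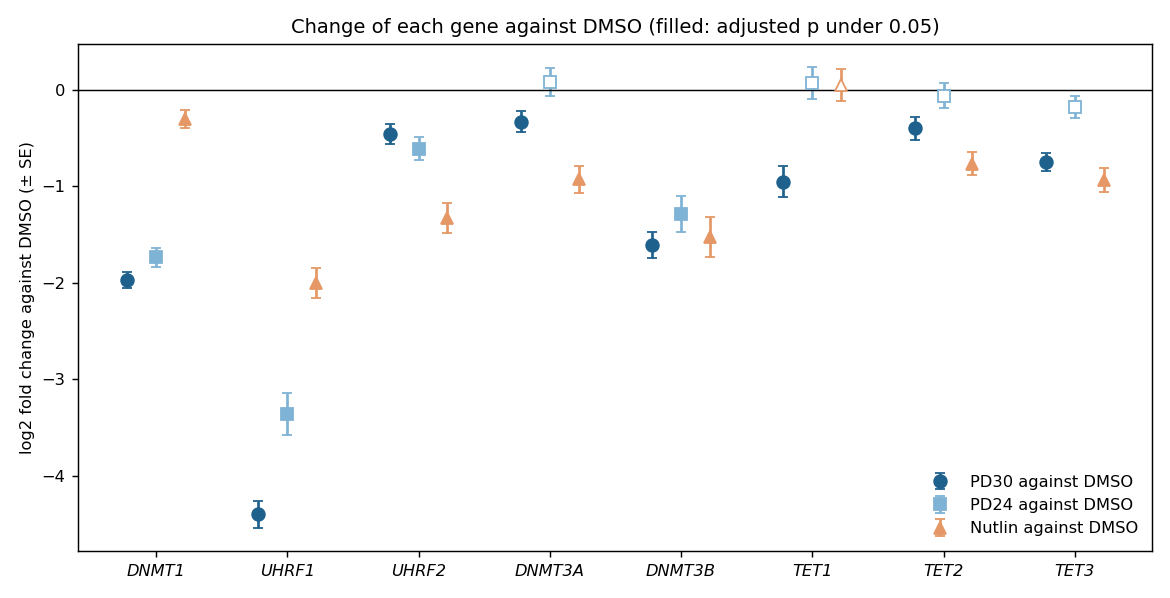
Log2 fold change against DMSO (vertical axis) of the 8 genes (horizontal axis) in PD30 (circles), PD24 (squares) and Nutlin (triangles). Points are edgeR estimates from 3 against 3 libraries, whiskers are ± 1 SE, and filled points have an adjusted p under 0.05. UHRF1 is lowest in all 3 comparisons, at -4.40, -3.36 and -2.003.

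The response to p53 activation alone was read from Nutlin against DMSO, and 7 of the 8 genes were lower, where 28% of the 15766 genes tested were called lower. UHRF1 had 38.6, 38.5 and 55.7 CPM in the Nutlin libraries, all below DMSO, with a log2 fold change of -2.003 ± 0.15 (edgeR, adjusted p = 6.75e-06). DNMT3B had 4.52, 3.30 and 6.30 CPM and fell by 1.52 on the log2 scale (edgeR, adjusted p = 0.000192). UHRF2 had 12.3, 8.56 and 13.4 CPM and fell by 1.33 (edgeR, adjusted p = 7.46e-05), so in the Nutlin libraries it lay below all PD24 and PD30 libraries.

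TET3 ranged from 14.1 to 19.5 CPM in Nutlin, DNMT3A from 5.46 to 7.33 and TET2 from 21.8 to 27.8, each range below that of DMSO. Their log2 fold changes were -0.94 ± 0.12, -0.93 ± 0.14 and -0.77 ± 0.12 (edgeR, adjusted p = 0.000168, 0.000374 and 0.00054). DNMT1 had 261, 283 and 329 CPM, below DMSO in every library, and its log2 fold change of -0.31 ± 0.09 was the smallest of the 7 (edgeR, adjusted p = 0.0183, and 0.0551 without Nutlin replicate 2). TET1 had 7.86, 6.56 and 6.08 CPM, overlapping DMSO, with a log2 fold change of 0.05 ± 0.17 (edgeR, adjusted p = 0.827). The sign of that TET1 value turned with scaling, to -0.08 with total counts. Scaling by total counts moved the median of all genes by -0.13 in this comparison, and the share of calls that were lower from 51.3% to 63.3%. The median of the 8 genes was -0.93, against 0.03 over all genes.

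What PD0332991 changed in cells that also received Nutlin was read from N+PD30 against Nutlin, and 3 of the 8 genes were lower, where 24.7% of 15721 genes were called lower. UHRF1 had 8.34, 6.15 and 6.83 CPM in N+PD30, below every Nutlin library, and the log2 fold change was -2.69 ± 0.19 (edgeR, adjusted p = 1.75e-06). DNMT1 had 104, 95.1 and 95.3 CPM, also without overlap, with -1.61 ± 0.13 (edgeR, adjusted p = 4.04e-06). TET1 had 1.65, 2.82 and 1.84 CPM, the lowest of its 6 groups, with -1.70 ± 0.24 (edgeR, adjusted p = 0.000243).

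UHRF2 went the other way in level, with 14.2, 15.7 and 18.4 CPM in N+PD30, all above the Nutlin libraries. Its log2 fold change of 0.46 ± 0.18 did not pass the test (edgeR, adjusted p = 0.0526), and its adjusted p ranged from 0.0177 to 0.202 over the alternative settings. It was 1 of 8 genes whose N+PD30 libraries all lay above Nutlin, where 29.7% of all genes did. DNMT3A (7.07 to 8.66 CPM), DNMT3B (4.21 to 4.91), TET2 (21.6 to 31.6) and TET3 (10.7 to 18.2) overlapped Nutlin, with log2 fold changes from -0.18 to 0.24 (edgeR, lowest adjusted p = 0.306).

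With PD0332991 withdrawn before Nutlin, 3 of 8 genes were lower in N+PD24 than in Nutlin, where 17.3% of 15927 genes were called lower. The N+PD24 values were deposited after scaling, so its comparisons used limma with an abundance trend on log2(CPM + 0.5), again with Benjamini-Hochberg adjustment, a scale that understates the change of low genes. DNMT1 had 55.9, 64.1 and 75.4 CPM in N+PD24, the lowest of its 6 groups, with -2.08 ± 0.12 (limma, adjusted p = 1.36e-06). UHRF1 had 5.49, 7.26 and 8.27 CPM, with -2.50 ± 0.17 (limma, adjusted p = 4.89e-06), and TET1 had 2.66, 3.44 and 2.96 CPM, with -0.99 ± 0.16 (limma, adjusted p = 0.0015). TET3 lay below Nutlin in every library (9.18 to 13.9 CPM) with -0.39 ± 0.17 (limma, adjusted p = 0.0998). Libraries with the same number deviated together here, and with the number as a block the TET3 value of -0.39 passed the test (limma, adjusted p = 0.00703), where the share of all genes called lower was 26.2%. The 4 others overlapped Nutlin, with ranges of 6.48 to 7.77 CPM for DNMT3A, 3.57 to 4.69 for DNMT3B, 9.53 to 11.97 for UHRF2 and 23.4 to 29.5 for TET2. This comparison shares the Nutlin libraries with the one before.

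The Nutlin response of cells under PD0332991 was read from N+PD30 against PD30. In that comparison 0 of 8 genes passed an adjusted p of 0.05 by edgeR, where 5.64% of 15077 genes were called lower, while 4 of 8 were lower at an unadjusted p under 0.05, where 15.6% of all genes were. DESeq2 called 1 of them lower, where it called 8.26% of the 14200 genes it gave an adjusted p, and edgeR with total counts in place of TMM called 3, where it called 9.42%. All N+PD30 libraries lay below all PD30 libraries for 5 of the 8 genes (DNMT3A, UHRF2, TET1, TET2 and TET3), where 26% of all genes did so. Libraries with the same number deviated together, though not every library did so most with its own number. With the number as a block 3 of 8 genes were lower by edgeR, where 14.1% of all genes were, UHRF2 by -0.42 (adjusted p = 0.0232), TET1 by -0.74 (adjusted p = 0.0195) and TET2 by -0.44 (adjusted p = 0.0148). DNMT1, at 0.05 ± 0.10 (-0.0456 with total counts), and DNMT3B, at -0.03 ± 0.15, lay closest to 0, and UHRF1 was at -0.30 ± 0.17 (edgeR, adjusted p = 0.769, 0.924 and 0.26). Total counts moved the share of calls that were lower from 38.9% to 56.2% in this comparison.

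After withdrawal of PD0332991 the response to Nutlin was read from N+PD24 against PD24, and 7 of 8 genes were lower, where 20.1% of 15531 genes were called lower. The log2 fold changes were -1.19 ± 0.21 for UHRF1, -1.16 ± 0.17 for TET3 and -1.04 ± 0.18 for TET1 (limma, adjusted p = 0.00166, 0.000426 and 0.00114). DNMT3A had -0.77 ± 0.16, DNMT1 -0.69 ± 0.13, UHRF2 -0.69 ± 0.16 and TET2 -0.61 ± 0.15 (limma, adjusted p from 0.0018 to 0.00978). All N+PD24 libraries lay below all PD24 libraries for these 7 genes, where 33% of all genes did so. DNMT3B had -0.30 ± 0.19 with overlapping libraries (limma, adjusted p = 0.232). Scaling by column totals moved the median of all genes by -0.13 and the share of calls that were lower from 54.2% to 69.2%.

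**Figure D3:**
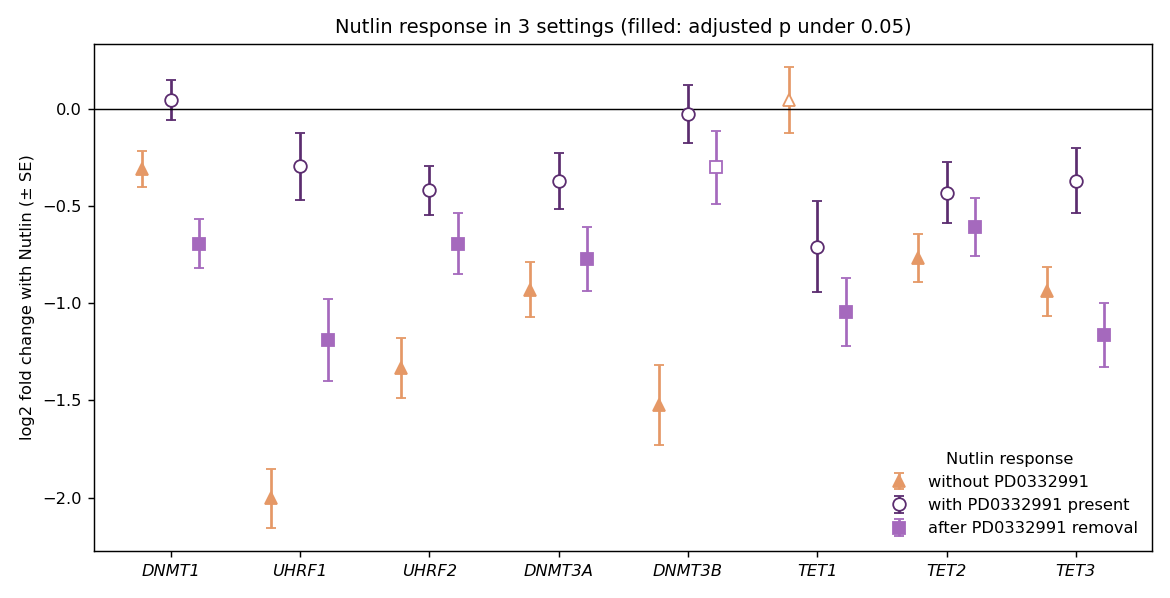
Log2 fold change with Nutlin (vertical axis) of the 8 genes (horizontal axis) without PD0332991 (Nutlin against DMSO, triangles), with PD0332991 present (N+PD30 against PD30, circles) and after its removal (N+PD24 against PD24, squares). Whiskers are ± 1 SE, filled points have an adjusted p under 0.05, circles and triangles are edgeR and squares limma estimates from 3 against 3 libraries. For UHRF1 the values are -2.003, -0.30 and -1.19, and for TET1 they are 0.05, -0.71 and -1.04.

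Whether the Nutlin response itself differed was tested by an interaction term over 12 libraries. With PD0332991 present, the response was less negative than without it for 4 of 8 genes, where 12.8% of 16113 genes were called in that direction. The differences were 1.75 ± 0.23 for UHRF1, 1.55 ± 0.26 for DNMT3B, 0.96 ± 0.21 for UHRF2 and 0.61 ± 0.19 for DNMT3A (log2, edgeR, adjusted p = 0.000383, 0.00145, 0.00547 and 0.0392). For DNMT3A the call was lost in 9 of the 12 fits that left out 1 library, namely DMSO replicate 1 or 2, Nutlin replicate 1 or 2, any PD30 replicate, or N+PD30 replicate 1 or 2 (edgeR, adjusted p from 0.0501 to 0.104). DNMT1 and TET3 were at 0.41 ± 0.14 and 0.62 ± 0.21 (edgeR, adjusted p = 0.0536 and 0.0579). Over the alternative settings their adjusted p ranged from 0.0294 to 0.134 and from 0.00981 to 0.139, and both passed with the replicate number as a block. TET2 was at 0.38 ± 0.21 (edgeR, adjusted p = 0.214). TET1 had the opposite sign, at -0.70 ± 0.29 (edgeR, adjusted p = 0.101).

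After removal of PD0332991 the interaction passed for 1 of 8 genes, where 0.65% of 16301 genes were called in that direction. TET1 responded more negatively than without pretreatment, by -1.08 ± 0.23 (log2, limma, adjusted p = 0.0333), a call that was lost in 8 of the 12 fits that left out 1 library, namely DMSO replicate 1 or 2, Nutlin replicate 1 or 2, PD24 replicate 2 or 3, or N+PD24 replicate 1 or 3 (limma, adjusted p from 0.0548 to 0.0928). DNMT3B was at 1.17 ± 0.28 (limma, adjusted p = 0.0583, and 0.0185 to 0.155 over the alternative settings), passing with the block among others, and UHRF1 was at 0.82 ± 0.28 (limma, adjusted p = 0.205). Both interaction tests share the DMSO and Nutlin libraries.

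What the withdrawal changed was read from PD24 against PD30 without Nutlin. UHRF1 was higher in PD24 by 1.04 ± 0.21, TET1 by 1.02 ± 0.18 and TET3 by 0.57 ± 0.13 (log2, edgeR, adjusted p = 0.00746, 0.00373 and 0.0117), 3 of 8 genes where 12.9% of 15171 were called higher. The TET3 call was lost without PD30 replicate 1 (edgeR, adjusted p = 0.0558). Libraries with the same number deviated together, and with the number as a block DNMT1 (0.23), DNMT3A (0.41) and TET2 (0.33) passed as well (edgeR, adjusted p = 0.0387, 0.0263 and 0.0125), which made 6 of 8, where the block raised the share of all genes called higher to 20.6%. UHRF1 thus lay at 9.59% of its DMSO mean in PD24 and at 4.78% in PD30, and TET1 at 103% and 52.1%.

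Under Nutlin the withdrawal went with 1 called gene in N+PD24 against N+PD30, where 15.7% of 15566 genes were called lower. DNMT1 was lower after withdrawal by -0.48 ± 0.13 (log2, limma, adjusted p = 0.0191), without overlap, and the call was lost without N+PD24 replicate 2 (adjusted p = 0.0694) or N+PD30 replicate 2 (adjusted p = 0.0554). UHRF2 was at -0.41 ± 0.16, also without overlap, and TET1 at 0.55 ± 0.21 with overlap (limma, adjusted p = 0.0714 and 0.0673). Scaling by column totals moved the median of all genes by -0.10 and the share of calls that were lower from 49.2% to 61.7%. The other 5 genes overlapped, with log2 values from -0.19 to 0.19.

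Ordered by mean CPM, DNMT1 went down from DMSO through Nutlin, PD24, PD30 and N+PD30 to N+PD24, and of these neighbours PD24, PD30 and N+PD30 overlapped in turn. UHRF1 had the same order, with overlap from PD30 through N+PD30 to N+PD24. DNMT3B was highest in DMSO, and from PD24 down each of the other 5 groups overlapped its neighbour. In UHRF2 the order was DMSO, PD30, PD24, N+PD30, Nutlin and N+PD24, with DMSO set apart and a gap between N+PD30 and Nutlin. DNMT3A, TET2 and TET3 had DMSO, PD24 and PD30 as their 3 highest groups, and TET1 had PD24, DMSO and Nutlin, which overlapped in turn.

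**Figure D4:**
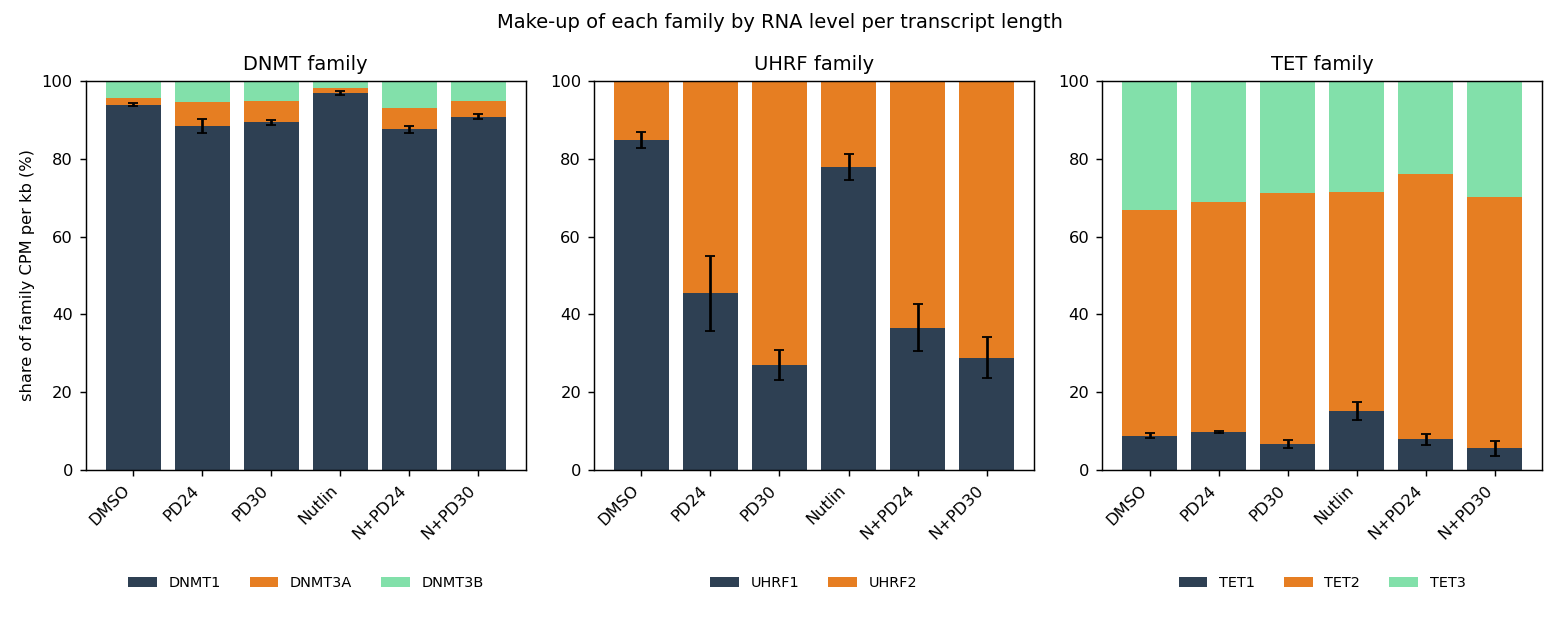
Share of each family's CPM per kb (vertical axis, percent) taken by its members in the 6 groups (horizontal axis). Bars are means of 3 libraries and whiskers are ± 1 SD of the lowest segment. UHRF1 goes from 84.9% of the UHRF family in DMSO to 26.98% in PD30, while DNMT1 stays between 87.6% and 96.9% of its family.

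Because the members of a family changed unequally, the make-up of the families differed between groups. UHRF1 was 84.9% ± 2.11 of the UHRF RNA per kb in DMSO and 78.0% ± 3.32 in Nutlin, but 45.4% ± 9.64 in PD24, 26.98% ± 3.84 in PD30, 36.6% ± 6.13 in N+PD24 and 28.9% ± 5.27 in N+PD30 (SD, n = 3). UHRF2 was therefore the larger of the pair in every PD30, N+PD24 and N+PD30 library, and in PD24 the share of UHRF1 ran from 34.6% to 53.04%. DNMT1 made up 93.9% ± 0.39 of the DNMT RNA per kb in DMSO, 96.9% ± 0.59 in Nutlin and 89.4% ± 0.58 in PD30, and the share of DNMT3A was 1.82% in DMSO and 5.39% in PD30. TET1 was 8.84% ± 0.65 of the TET RNA in DMSO, 15.2% ± 2.33 in Nutlin and 5.52% ± 1.87 in N+PD30, and TET2 was the largest of the 3 in all 6 groups. The ratio of UHRF1 reads to DNMT1 reads, which needs no scaling between libraries, was 0.490 ± 0.063 in DMSO, 0.151 ± 0.017 in Nutlin, 0.158 ± 0.031 in PD24, 0.0912 ± 0.0078 in PD30, 0.107 ± 0.0078 in N+PD24 and 0.0723 ± 0.0080 in N+PD30. By reads without length scaling, DNMT3A was 3.23% of the DNMT family in DMSO and 9.32% in PD30, and DNMT3B 3.49% and 4.18%. On that scale DNMT1 was 93.3% and 86.5% of its family, and UHRF1 85.9% and 28.7% of its own. Shares and ratios were not tested.

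Genes of DNA replication moved with these results. Of 25 S phase genes (replication and nucleotide synthesis), 25 were lower in PD30 than in DMSO (median -3.92 on the log2 scale, range -6.99 to -1.20), and 25 in PD24 (median -3.08). In Nutlin against DMSO 19 were lower and 1 higher (median -0.74), and in N+PD30 against Nutlin 24 were lower (median -3.35). Over all genes 25.4% were lower in PD30, 20.8% in PD24 and 24.7% in N+PD30 against Nutlin. In Nutlin 28% of all genes were lower and 26.6% higher. UHRF1, at -4.40 in PD30, had 10 of the 25 below it, while DNMT1, at -1.97, and DNMT3B, at -1.61, each had 24 below. In Nutlin, UHRF1 at -2.003 had only 2 of the 25 below it. The summed level of the 25 genes was 3987 to 4289 CPM in DMSO, 2479 to 2672 in Nutlin, 407 to 556 in PD24 and 301 to 350 in PD30. The part of the cell cycle in the changes of DNMT1 and UHRF1 was not tested.

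**Figure D5:**
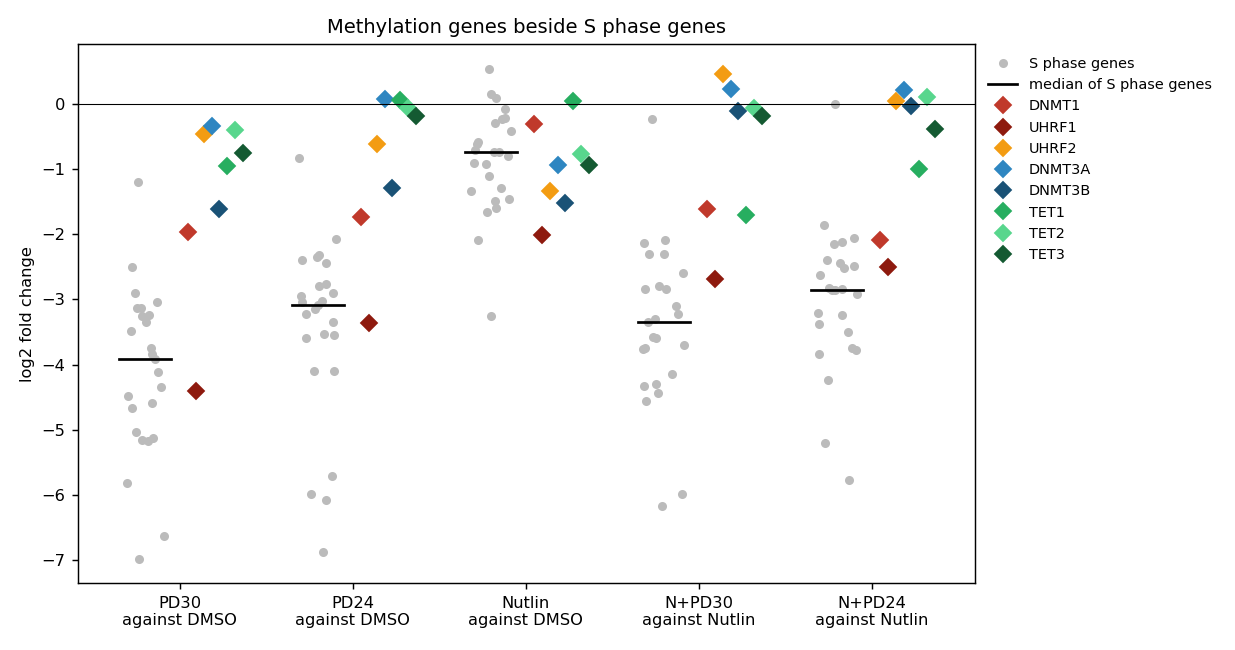
Log2 fold change (vertical axis) in 5 comparisons (horizontal axis) of 25 S phase genes (grey points, with their median as a line, spread sideways for legibility) and of the 8 genes (coloured diamonds). Values are edgeR estimates, and limma estimates for N+PD24. UHRF1 lies among the S phase genes in PD30 and PD24 against DMSO. DNMT1 and DNMT3B lie at their upper edge, each with 24 of the 25 below it, and the remaining genes lie above all 25 in both comparisons.

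Genes whose pattern across the 18 libraries was most like that of each of the 8 were sought among 10891 genes by Pearson's r of log2(CPM + 0.5). The libraries share their treatments, so r is given as a description. DNMT1 was most like INCENP (r = 0.995), a chromosomal passenger protein, FEN1 (0.993), the flap endonuclease of replication, and HIRIP3 (0.989). UHRF1 was most like CCNF, which encodes cyclin F (0.991), ORC1 of the origin recognition complex (0.990) and C15orf23 (0.989). DNMT3B was most like UNG, the uracil-DNA glycosylase (0.940), PRPSAP1 (0.939) and DCLRE1A (0.928). DNMT3A was most like AKAP1 (0.974), BEND3 (0.963) and HARS2 (0.960), and UHRF2 was most like KLHDC5 (0.974). TET1 was most like CS, the citrate synthase (0.922), UTP6 (0.915) and NFIA (0.910), TET2 was most like DTX3L (0.981), ZBTB2 (0.977) and SCAF8 (0.970), and TET3 was most like LRRK1 (0.975), BCL7A (0.965) and ZNF551 (0.960). With TMM-scaled CPM the first gene was the same for 6 of the 8, while CS dropped to place 6 for TET1. Between the 8 genes themselves, r was highest for DNMT1 with UHRF1 (0.949), then for TET2 with TET3 (0.885), and lowest for DNMT1 with DNMT3A (0.217).

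Partners of maintenance methylation, a list of 10 genes that holds PCNA, HELLS and LIG1 among others, fell with DNMT1 and UHRF1 under PD0332991. In PD30 against DMSO 9 of 10 were lower, where 25.4% of all genes were, and the median of their log2 fold changes was -1.98. The chromatin remodeller HELLS went from 55.3 to 1.85 CPM (log2 fold change -4.92 ± 0.15), the ligase LIG1 from 73.9 to 4.47 (-4.07 ± 0.16) and CDCA7, the partner of HELLS, from 71.7 to 7.35 (-3.30 ± 0.13). In N+PD30 against Nutlin 7 of 10 were lower and 1 higher (24.7% and 24.3% of all genes, median of the list -1.11), led by HELLS at -4.71 ± 0.19. In Nutlin against DMSO 6 were lower and 1 higher (28% and 26.6% of all genes), with a list median of -0.33, led by CDCA7 at -2.16 ± 0.18.

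Of 5 partners of DNMT3 enzymes, 3 were tested in PD30 against DMSO and 2 of them were lower, where 25.4% of all genes were. These were TRIM28, by -0.95 ± 0.11, and CBX5, which encodes a heterochromatin protein, by -0.87 ± 0.09. DNMT3L, a DNMT3-like protein without catalytic activity of its own, was nearly silent without Nutlin, with 1, 0 and 0 reads in the DMSO libraries, 0, 0 and 1 in PD24 and 0 in all 3 PD30 libraries. In the Nutlin libraries it had 24, 21 and 19 reads. Summed over each group, the CPM ratio of Nutlin to DMSO was 67.7 (exact Clopper-Pearson 95% interval 11.7 to 2716, for counting error only). It had 3, 13 and 4 reads in N+PD24 and 1, 4 and 3 in N+PD30.

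Of 9 genes that supply or bind TET enzymes, 4 were lower and 2 higher in PD30 than in DMSO (median -0.48), where 25.4% and 22.9% of all genes were. IDH1, which makes the co-substrate 2-oxoglutarate in the cytosol, rose from 104.8 to 278 CPM (log2 fold change 1.39 ± 0.09), while its mitochondrial relative IDH2 fell from 19.0 to 6.77 CPM (-1.51 ± 0.17) and CXXC4 fell from 0.890 to 0.262 CPM (-1.78 ± 0.32). In N+PD30 against Nutlin 3 were lower and 2 higher (24.7% and 24.3% of all genes), with IDH1 at 1.21 ± 0.17 and IDH2 at -1.38 ± 0.25. Nutlin against DMSO gave 1 lower gene, where 28% of all genes were lower. It was WT1, which encodes a transcription factor that binds TET2 and TET3 and went from 2.77 to 0.517 CPM. Apart from DNMT3L, which is described by its reads, the adjusted p of each gene named from these lists was 0.00142 or lower (edgeR).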

How the data were processed

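The authors prepared libraries from total RNA, aligned reads of 50 bases (TopHat, Bowtie 2, build hg19) and assigned them to gene symbols by HTSeq 0.6.0 under its reverse strand setting. The sources used here do not say whether the kit keeps the strand, so sense and antisense reads may not be separated. The deposited tables, named as variance-stabilized, hold raw counts for DMSO, Nutlin, PD24, PD30 and N+PD30, and for N+PD24 a signal that the authors made by dividing counts by 1 size factor per library. Multiplied back, 100% of its values were whole within 0.001 of a read. Further deposited tables hold normalized means and the authors' own Nutlin comparison (fold changes and p-values) and were not used. CPM used each column's total. Of 23368 rows, 28 had names turned into dates.

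Groups came from the sample labels. Tests were edgeR 4.0.16 (quasi-likelihood, TMM, filterByExpr, 2 groups per fit) and, for N+PD24, limma 3.58.1 with a pseudocount of 0.5, in R 4.3.3, with Benjamini-Hochberg adjustment over all genes and a threshold of 0.05. SE values come from these fits. The scripts were tested on simulated data. The alternatives were DESeq2 1.42.0, edgeR on the recovered N+PD24 reads, limma on counts, a pseudocount of 2, no filter, total counts, 1 fit over all libraries, a replicate block, an added fold threshold of 1 (log2) and leaving out each replicate. TMM-scaled CPM, and shares without length scaling, were added after seeing the data. Same-numbered libraries were taken as pairs where all 3 correlations of their deviations from the group means were over 0.1. That held for N+PD30 against PD30 (0.187, 0.321 and 0.644), PD24 against PD30 (0.305, 0.551 and 0.289), N+PD24 against Nutlin (0.619, 0.365 and 0.470) and N+PD24 against PD24 (0.413, 0.452 and 0.197), a hint from the data and not from the labels. In the first of these, unlike the others, not every library correlated best with its own number. All 8 genes are named, and of each context list the 3 genes with the largest changes past the threshold in PD30 against DMSO, Nutlin against DMSO or N+PD30 against Nutlin could be. A few genes that this rule or a list would name are not reported here, though counts over a list include them. The 8 genes and the lists were chosen with earlier results of these data known. DNMT3L counts are given outside a test. Transcript lengths are those of the MANE transcripts in GENCODE on GRCh37. Depth ran from 12704845 to 40231041 counts, where 3 counts equal 0.236 to 0.0746 CPM.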

Additional observations from a re-analysis of the deposited data

Results flagged for a closer look

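The Nutlin response differed between cells with and without PD0332991 for 4 genes by the interaction term itself. The differences of log2 fold changes, N+PD30 against PD30 minus Nutlin against DMSO, were 0.61 for DNMT3A, 1.55 for DNMT3B, 1.75 for UHRF1 and 0.96 for UHRF2, each a smaller fall with PD0332991 present. In PD30, with PD0332991 for 30 h and no Nutlin, UHRF1 and DNMT3B were at 4.78% and 33.1% of their DMSO means. UHRF2 and DNMT3A were at 73.7% and 80.2% there. Levels at the time Nutlin was added were not measured. Whether the lower level under PD0332991 alone has a part in the smaller response was not tested. In Nutlin and in N+PD30 the means were 32.05% and 30.3% of DMSO for DNMT3B, 22.9% and 3.68% for UHRF1, 36.5% and 51.7% for UHRF2, and 48.2% and 58.3% for DNMT3A.

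After PD0332991 had been removed, 1 gene differed by the same kind of term. TET1 was lower with Nutlin after pretreatment (log2 fold change -1.04, limma), while without pretreatment it was at 0.05 (edgeR) and not called. The difference of log2 fold changes was -1.08. The 3 Nutlin libraries lay at 6.08 to 7.86 CPM and the 3 DMSO libraries at 6.21 to 8.21, whereas N+PD24 lay at 2.66 to 3.44 CPM and PD24 at 6.65 to 8.82.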

How the results depend on the processing

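Of the 41 changes of the 8 genes with an adjusted p under 0.05, 34 kept direction and call under every alternative run other than the added fold threshold, and 0 of the 41 reversed. At the lowest depth 3 counts equal 0.236 CPM. Asking in addition for an absolute log2 fold change over 1 left 3 genes in PD30 against DMSO (15.2% of all genes), 3 in PD24 against DMSO (12.6%), 3 in Nutlin against DMSO (20.8%), 3 in N+PD30 against Nutlin (22.3%), 2 in PD24 against PD30 (7.49%), 2 in N+PD24 against Nutlin (8.88%), 3 in N+PD24 against PD24 (11.3%), 0 in N+PD24 against N+PD30 (9.47%), 2 in the interaction with PD0332991 present (10.2%) and 1 in that after removal (1.06%). For N+PD30 against PD30, where 0 of the 8 genes and 14.5% of all genes were called, DESeq2 gave 1 (20.6% of all genes) and total counts 3 (16.8%). There 1 fit over 15 libraries gave 3 (18.1%), the replicate block 3 (29%), and leaving out 1 replicate 0 to 2 (3.79% to 22.1%). For PD24 against PD30 the block gave 6 (40.3% of all genes, and 25.2% without the block). For N+PD24 against N+PD30 (1 gene, and 31.9% of all genes), column totals gave 2 (32.7%), 1 fit over 18 libraries 3 (42%) and the block 2 (34.2%). Leaving out 1 replicate gave 0 to 1 there (20.5% to 31.1%). For the interaction after removal (1 gene, and 1.44% of all genes), a pseudocount of 2 gave 2 (2.15%) and no filter 0 (1.23%). In it 18 libraries gave 2 (1.87%), the block 2 (2.64%), and leaving out 1 replicate 0 to 2. The shares of all genes called were 0.734%, 0.547% and 0.699% without DMSO replicate 1, 2 or 3. They were 1.33% and 0.676% without Nutlin replicate 1 or 2. The cause of these moves was not tested. In comparisons whose same-numbered libraries did not all deviate together, the block changed 5 calls, to passing: UHRF2 in N+PD30 against Nutlin (0.48), TET1 in N+PD24 against N+PD30 (0.55), DNMT1 and TET3 in the interaction with PD0332991 present (0.41 and 0.62), and DNMT3B in that after removal (1.17). Over all genes it moved the share called from 19.8% to 25.6% in the former interaction and from 1.44% to 2.64% in the latter. Beyond these and the blocked values given with the comparisons, the block changed no call.

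Signs turned for values near 0 that were not called. Total counts or column totals gave -0.0798 for TET1 in Nutlin against DMSO, -0.0456 for DNMT1 in N+PD30 against PD30, -0.0196 for UHRF2 in N+PD24 against Nutlin, and -0.0684 for DNMT3B and -0.0264 for UHRF1 in N+PD24 against N+PD30. Leaving out 1 replicate gave these ranges. In PD24 against DMSO they were -0.022 to 0.20 for DNMT3A, -0.058 to 0.16 for TET1 and -0.18 to 0.011 for TET2, and in Nutlin against DMSO -0.078 to 0.14 for TET1. In N+PD30 against Nutlin they were -0.29 to 0.13 for DNMT3B and -0.22 to 0.024 for TET2, and in N+PD30 against PD30 -0.0029 to 0.10 for DNMT1 and -0.11 to 0.049 for DNMT3B. In N+PD24 against Nutlin they were -0.25 to 0.16 for DNMT3B and -0.14 to 0.15 for UHRF2, and in N+PD24 against N+PD30 -0.10 to 0.062 for DNMT3A, -0.022 to 0.12 for DNMT3B and -0.027 to 0.21 for UHRF1. In the interaction after removal DNMT3A ranged from -0.0027 to 0.21.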

Other observations

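Of 8 methyl-CpG binding genes, the readers of methylated DNA, 2 were lower and 1 higher in PD30 than in DMSO, 6 were lower in Nutlin than in DMSO, and 4 were higher and 0 lower in N+PD30 than in Nutlin (edgeR, adjusted p under 0.05, with medians of -0.17, -0.60 and 0.46). Over all genes, 25.4% were lower and 22.9% higher in PD30, and 28% lower in Nutlin. In N+PD30 against Nutlin 24.3% of all genes were higher and 24.7% lower. ZBTB4, a zinc finger protein that binds methylated CpG, rose in PD30 from 89.9 to 157 CPM (log2 fold change 0.79 ± 0.10, edgeR, adjusted p = 0.000231), and from 59.8 in Nutlin to 162 in N+PD30 (1.39 ± 0.12, edgeR, adjusted p = 7.29e-06). MBD4, a reader with glycosylase activity, fell in Nutlin from 48.9 to 14.6 CPM (-1.62 ± 0.12, edgeR, adjusted p = 5.05e-06), and ZBTB33, which encodes Kaiso, from 52.7 to 16.7 CPM (-1.53 ± 0.11, edgeR, adjusted p = 4.82e-06).

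Of 10 genes for base excision of oxidised or deaminated methylcytosine, 5 were lower and 1 higher in PD30 than in DMSO, where 25.4% and 22.9% of all genes were. PARP1 was at -1.57 ± 0.08 and XRCC1 at -1.10 ± 0.09 (edgeR, adjusted p = 4.42e-07 and 9.86e-06). GADD45A, a p53 target, rose in Nutlin from 33.5 to 55.0 CPM and was at 126 CPM in N+PD30 (1.15 ± 0.13 against Nutlin, edgeR, adjusted p = 4.36e-05). Of 12 genes of the S-adenosylmethionine cycle, which supplies the methyl group, 5 were lower and 3 higher in PD30, beside the same 25.4% and 22.9%. SHMT1 fell from 48.0 to 14.2 CPM and MTHFD1 from 147 to 71.6 (edgeR, adjusted p = 3.66e-06 and 8.81e-06). In Nutlin 5 were lower and 2 higher, where 28% and 26.6% of all genes were. MAT2A, an S-adenosylmethionine synthase, went from 299 to 151 CPM (-0.87 ± 0.12, edgeR, adjusted p = 0.000191).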
